A study of Mus musculus with 10 samples.

Results

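The response of bone marrow-derived eosinophils (BMEos) to lipopolysaccharide (LPS) was measured on 4 of the 10 arrays of the series, namely those whose titles begin with the word Eosinophils. BM cells of C57BL6/N mice, either wildtype (called B6 in the study) or Slpi-/-, which lack the secretory leukoprotease inhibitor SLPI, were grown with Flt3 ligand and stem cell factor and then with IL-5. From each genotype, 1 array held BMEos without LPS and 1 held BMEos given LPS (1 µg/ml by the study's methods) for 3 h. The age and sex of the mice, and the number of mice and cultures behind an array, are not given in the sources used here. The remaining 6 arrays held basophils and mast cells of the same genotypes and entered the choice of the genes tested, the estimate of the spread and, where named, a comparison of levels.

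Eosinophils are granulocytes that mature in the marrow under IL-5, store cationic granule proteins and take part in allergic inflammation and in defence against parasites. LPS, a component of the outer membrane of Gram-negative bacteria, is recognised by Toll-like receptor 4 with CD14 and MD-2 at the cell surface. The receptor signals through MyD88 to NF-kB and through TRIF to interferon genes, and in myeloid cells this transcriptional programme is accompanied by changes in metabolism, survival and surface receptors. Interferon-induced genes, NF-kB genes and chemokines are the known core of the programme, so the description below gives them briefly and turns to the other genes.

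The arrays carried eosinophil RNA in all 4 conditions, and LPS was not the only thing that differed between them. All 8 eosinophil markers that were measured, among them Prg2 (major basic protein), Siglecf and Ccr3, stood above background on all 4 arrays, where background is the 95th percentile of the signals of 1027 olfactory receptor genes on the array. Xist, the non-coding RNA of the inactive X chromosome of female cells, was low before LPS, with log2 signals of 4.15 in wildtype and 4.90 in Slpi-/- BMEos, and high with LPS, at 9.72 and 9.66. The genes of the Y chromosome went the other way. Eif2s3y had signals of 8.20 and 8.45 without LPS and 3.22 and 3.54 with LPS, Uty had signals of 7.48 and 7.44 against 3.43 and 3.53, and Kdm5d had signals of 7.99 and 8.0 against 5.48 and 5.19. On the 6 basophil and mast cell arrays Xist lay between 3.99 and 4.46 and Eif2s3y between 7.62 and 8.48, so the LPS arrays alone had high Xist and low Y-linked signals. The arrays with and without LPS thus differed in these signals as female and male cells do, and in every difference below LPS and this difference between the cultures cannot be told apart.

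**Figure D1:**
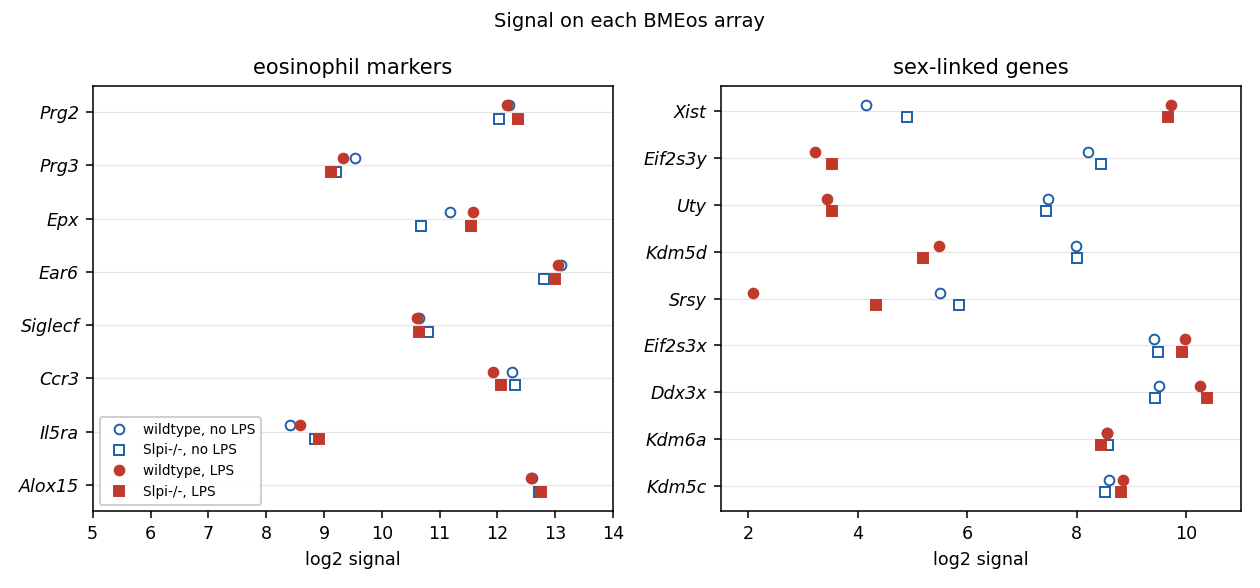
Log2 signal of the 8 measured eosinophil markers (left) and of 9 sex-linked genes (right) on the 4 BMEos arrays, 1 symbol an array (open, no LPS; filled, LPS; circle, wildtype; square, Slpi-/-). The eosinophil markers stay together on all 4 arrays, whereas Xist is high and the Y-linked genes are low on both LPS arrays.

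Other X-linked genes were counted as well. Of the genes of the X chromosome outside the sex-linked lists, 364 were tested, and 12.1% rose and 15.1% fell with LPS, with a median difference of 0.00 on the log2 scale. Among X-linked genes that escape inactivation, Ddx3x (9.50 and 9.42 without LPS, 10.26 and 10.37 with LPS) and Eif2s3x (9.40 and 9.49 against 9.98 and 9.92) rose, by 1.81-fold and 1.41-fold, and 3 others did not pass. Markers of other cells also moved, with 3 of 10 tested macrophage or monocyte markers up (Csf1r, C1qa, Apoe), 5 of 9 dendritic cell markers up and Itgax down, and 1 of 13 neutrophil markers up (Lcn2) and 3 down (Ly6g, Cxcr2, Retnlg). Over all tested genes 12.7% rose and 16.2% fell. C1qa, and Zbtb46 of the dendritic cell list, were below background on both arrays without LPS. Against that background they were at least 1.12-fold and 1.17-fold higher. The mean log2 signal of the macrophage list was 6.09 and 6.19 without LPS and 6.38 and 6.42 with LPS, that of the dendritic cell list was 6.23 and 6.34 against 6.70 and 6.77, and that of the neutrophil list was 7.22 and 7.34 against 7.23 and 7.26. In the megakaryocyte or platelet list 1 of 5 rose, Pf4, which was 3.63-fold higher (5.62 and 5.73 without LPS, 7.71 and 7.36 with LPS), and the mean went from 7.37 and 7.54 to 8.04 and 7.90. In the progenitor list 3 of 6 rose (Myb, Meis1, Gfi1) and Cd34 fell 2.19-fold, with means of 6.21 and 6.24 against 6.19 and 6.30. Meis1 was below background on both arrays without LPS and at least 1.37-fold higher with LPS. In the basophil list 2 of 7 fell (Gata2 and Ms4a2, the latter below background on all 4 arrays), with means of 6.24 and 6.31 against 6.19 and 6.36, and in the B cell list 1 of 2 rose (Cd79b, means of 4.96 and 4.99 against 5.05 and 5.03). No tested mast cell, T or NK cell or erythroid marker passed (0 of 5, 0 of 3 and 0 of 3). A smaller share of a cell type and less RNA of a gene per cell cannot be told apart in bulk RNA, and the part of such cells in the results was not tested. Slpi itself checked the genotype labels, with signals of 8.08 and 7.96 in wildtype BMEos and 6.41 and 5.93 in Slpi-/- BMEos, without and with LPS.

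LPS went with a broad change of the transcriptome. Of 13571 genes above background on at least 1 array, limma called 1724 higher with LPS, which is 12.7% of the genes tested, and 2202 lower, which is 16.2% (Benjamini-Hochberg adjusted p under 0.05). The share of rises among the calls was 43.9% and became 30.4% when each array was centred on its median, which shifted the median difference of all genes from 0.02 to -0.06. At least 2-fold differences in both genotypes, a count that needs no test, were seen for 281 genes in the upward direction (2.07%) and for 258 genes in the downward direction (1.9%). With each pair left out, limma called 689 genes up and 888 down without the wildtype pair, and 648 up and 889 down without the Slpi-/- pair. There was 1 array a condition, so the test had 2 residual degrees of freedom, borrowed in part from the basophil arrays, and its p-values measure the spread between the genotypes' responses rather than between mice.

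Of the risen genes, 121 (7.02%) stood on the interferon, NF-kB and chemokine lists. These lists are short, so their share of the risen genes is limited by their length. Of the 13571 tested genes, 13420 lay outside them, and 11.9% of those rose. The interferon and NF-kB lists rose almost throughout. In the interferon list 83 of 93 tested genes rose and 0 fell (median difference 2.02 on the log2 scale, against 0.02 over all genes), in the NF-kB list 29 of 36 rose, and in the chemokine list 10 of 24 rose. Il6, the gene of interleukin 6 and on the NF-kB list, had signals of 4.02 and 4.41 without LPS and 9.94 and 10.16 with LPS, at least 20.9-fold higher against the background (adjusted p = 1.09e-05). Outside these 3 lists 1603 genes rose and 2201 fell, and 183 were at least 2-fold higher and 258 at least 2-fold lower in both genotypes. Most of the genes that moved by at least 2-fold were already or still expressed on the other side. Of the 281 higher genes, 210 were above background on both arrays without LPS and 57 on neither, and of the 258 lower genes, 233 were above background on both arrays with LPS and 17 on neither.

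The genes with the largest rises were ranked outside those 3 lists and the sex-linked lists, on which Xist would rank just after Pilra, and predicted and clone-named genes were left out. For rises and falls alike, only genes that passed the test and moved the same way in both genotypes were ranked. The agreement of the genotypes in the ranked genes thus follows from that choice. The 3 lists need not be complete, and whether a ranked gene belongs to the same programme as their genes was not tested. Pilra, an inhibitory receptor with immunoreceptor tyrosine-based motifs, went from signals of 5.43 in wildtype and 5.19 in Slpi-/- cells to 10.67 and 10.36 with LPS. It was below background on both arrays without LPS and among the brighter genes on both with LPS, a difference of at least 28.8-fold (adjusted p = 7.68e-05). Dgat2, which catalyses the last step of triglyceride synthesis, had signals of 6.13 and 5.88 before LPS and of 10.49 and 10.22 after it. Both genotypes were low without and high with LPS, by 20.4-fold on average (log2 term 4.35 ± 0.16, SE, adjusted p = 2.57e-05). Clec4e, the C-type lectin Mincle that binds mycobacterial glycolipids, had signals of 6.65 and 6.78 without LPS and of 10.82 and 10.71 with LPS, 16.5-fold higher with no overlap (adjusted p = 1.27e-05).

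Casp4, the mouse caspase-11 gene whose product binds intracellular LPS, had signals of 4.58 and 4.75 without LPS and of 8.39 and 8.40 with LPS. It rose from below background by at least 6.64-fold (adjusted p = 1.27e-05). Smpdl3b, a membrane-bound phosphodiesterase, had signals of 5.60 and 5.35 against 9.10 and 8.65, at least 9.24-fold higher in the LPS arrays. Acod1, which makes itaconate from an intermediate of the citric acid cycle, had signals of 6.18 and 5.78 without LPS and of 8.71 and 8.93 with LPS. The LPS arrays were the higher in both genotypes, 7.17-fold on average (adjusted p = 0.000469).

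The other genes among the 15 largest rises were Phf11c and Setdb2, which are neighbours on chromosome 14, Pilrb1 and Pilrb2, Rassf4, Peg10, Treml4, Klrb1b and Fchsd2. Pilrb1 had signals of 8.03 and 7.94 without LPS and 11.15 and 10.98 with LPS, and Pilrb2 had signals of 7.01 and 6.82 against 10.09 and 9.78. These activating paired receptors are close relatives of each other and of Pilra, so their probe signals may be shared. Rassf4, a Ras-association domain gene, had signals of 7.75 and 7.86 against 10.83 and 10.71. Peg10, an imprinted gene derived from a retrotransposon, had signals of 7.92 and 8.54 against 11.04 and 11.02. For both genes the LPS arrays lay above the arrays without LPS in both genotypes.

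Large falls were fewer than large rises when all 13571 tested genes were counted. At least 4-fold differences in both genotypes were seen for 26 genes downward and for 88 upward. The 88 include genes of the interferon, NF-kB and chemokine lists, such as Rsad2, Il6 and Ccl5. Outside those lists falls were the more frequent at the 2-fold minimum, with 258 genes lower in both genotypes and 183 higher. Rgs1, a GTPase-activating protein that shortens signals of G-protein-coupled chemoattractant receptors, went from signals of 10.79 in wildtype and 10.82 in Slpi-/- cells to 5.82 and 5.88 with LPS. The fall was 31.1-fold, from a bright signal to one near background, and all but equal in both genotypes (log2 term -4.96 ± 0.09, SE, adjusted p = 5.88e-06). Fos, a subunit of the transcription factor AP-1, had signals of 9.41 and 9.32 without LPS and of 5.51 and 5.74 with LPS, 13.4-fold lower (adjusted p = 1.27e-05). Ahr, the aryl hydrocarbon receptor, had signals of 11.02 and 10.74 against 7.36 and 7.39, 11.4-fold lower with no overlap (adjusted p = 6.58e-05).

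Hspa1a, an inducible HSP70 chaperone, had signals of 9.71 and 11.26 without LPS and of 6.18 and 6.01 with LPS. The arrays without LPS were higher in both genotypes, by 21-fold on average, but differed among themselves (adjusted p = 0.000558). Hspa1a has a near-identical copy, Hspa1b, with which its signal may be shared. Per1, a repressor of the circadian clock that also responds to glucocorticoids and cAMP, had signals of 9.57 and 9.50 against 6.80 and 6.62, 7.1-fold lower (adjusted p = 1.9e-05). Tent5c, a poly(A) polymerase gene, had signals of 10.14 and 10.15 against 7.33 and 7.41, and Mirt2, a long non-coding RNA gene, of 8.72 and 8.68 against 6.33 and 6.30. In each of these genes the LPS arrays were lower in both genotypes.

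Receptors and enzymes also stood among the 15 largest falls. P2ry10, a receptor for lysophosphatidylserine, had signals of 9.38 and 9.36 without LPS and of 6.67 and 6.86 with LPS, and Lpar6, a lysophosphatidic acid receptor, had signals of 10.60 and 10.51 against 8.0 and 7.93. Gla, the lysosomal alpha-galactosidase, had signals of 10.43 and 10.49 against 7.86 and 7.95. Dusp1, the phosphatase that inactivates p38 and JNK, had signals of 11.61 and 11.68 against 9.28 and 9.14, 5.39-fold lower (adjusted p = 7.39e-05). Srsy also met the rule for the largest falls, but it is a gene of the Y chromosome and belongs with the sex-linked genes above.

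**Figure D2:**
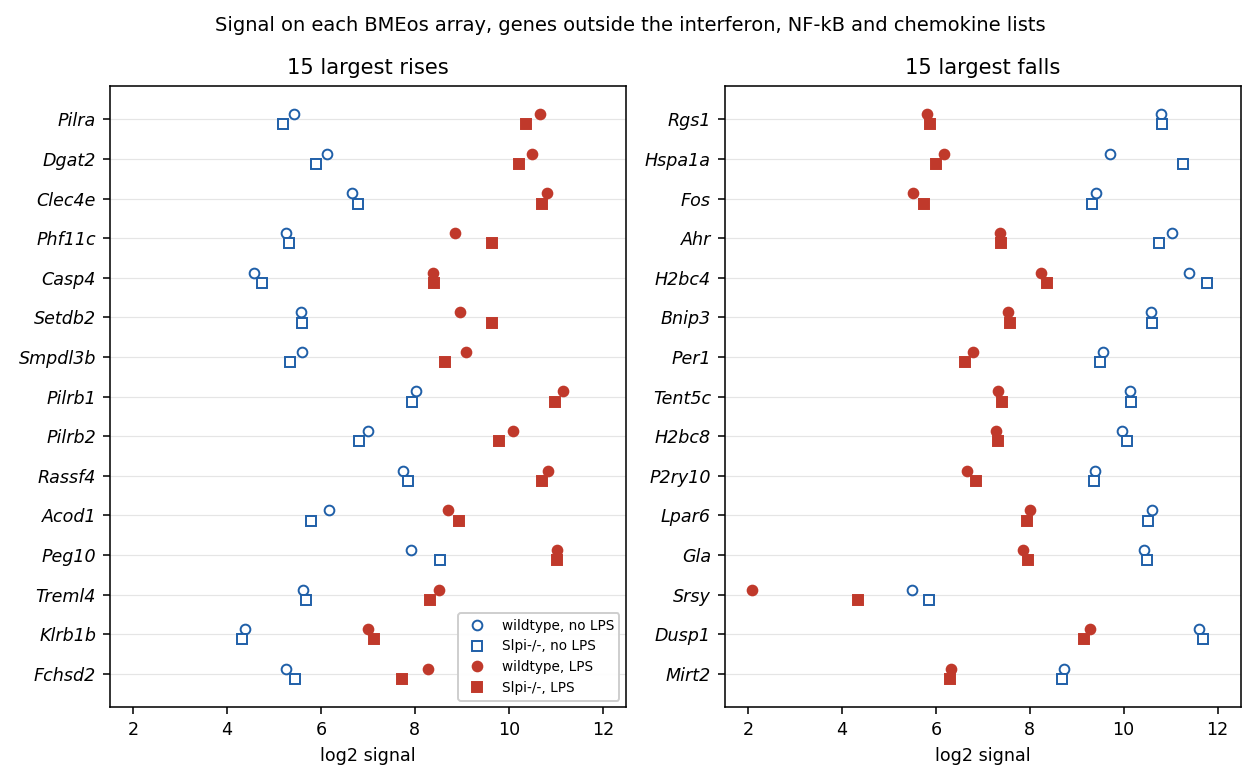
Log2 signal on the 4 BMEos arrays of the 15 genes with the largest rises (left) and the 15 with the largest falls (right) outside the interferon, NF-kB, chemokine and sex-linked lists, with 1 symbol an array. The genes were chosen for large changes the same way in both genotypes, so in every row both LPS arrays (filled) lie on the same side of both arrays without LPS (open). The spread between genotypes is widest for Hspa1a without LPS and for Srsy with LPS.

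Beside the 3 core lists, 41 lists of other functions were described by their counts. Over all tested genes, the measure for each count, 12.7% rose and 16.2% fell. Among the lists of metabolism, that of glycolysis and the hypoxia response had the most falls. Of its 28 genes, 22 fell, 1 rose and 5 did not pass, with a median difference of -1.02 against 0.02 over all tested genes, and 14 were at least 2-fold lower in both genotypes. Without the wildtype pair 13 of the 28 fell, and without the Slpi-/- pair 15. Bnip3, a mitophagy receptor induced by hypoxia, had signals of 10.58 and 10.61 without LPS and of 7.53 and 7.58 with LPS, 8.21-fold lower (adjusted p = 2.14e-05). Vegfa, the vascular growth factor, had signals of 9.63 and 9.71 against 7.43 and 7.18, and Ddit4, an inhibitor of mTORC1, had signals of 9.69 and 9.33 against 7.67 and 7.82. Groups did not overlap for any of these, which were named for their large falls.

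The enzymes and transporters of the pathway fell at most of its steps. Slc2a1, the glucose transporter GLUT1, had signals of 12.46 and 12.47 without LPS and of 10.92 and 10.89 with LPS (2.96-fold lower, adjusted p = 0.000145). Pfkfb3, which makes the activator of phosphofructokinase, had signals of 8.50 and 8.91 against 7.44 and 7.76. Ldha, lactate dehydrogenase, had signals of 12.47 and 12.47 against 11.41 and 11.56 (1.97-fold lower, adjusted p = 0.00254), and remained among the brightest genes on all 4 arrays. Pdk1, which holds pyruvate back from the mitochondria, had signals of 7.18 and 7.25 against 5.63 and 5.85. Hk2, Slc2a3, Pgk1 and P4ha1 fell too, by 1.58-fold to 2.35-fold. Slc2a6, a lysosomal hexose transporter, rose 5.13-fold (9.19 and 8.98 without LPS, 11.47 and 11.42 with LPS, adjusted p = 8.71e-05). The 5 genes that did not pass were Hif1a, Hk1, Hk3, Pigq and Car9. Hif1a, the hypoxia-inducible factor itself, had signals of 11.30 and 11.36 against 11.62 and 11.74 (adjusted p = 0.0763), and Hk1 of 11.20 and 10.89 against 11.33 and 11.33. Pigq, a gene of membrane anchor synthesis, is not a glycolytic gene but is counted in this list.

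On the arrays without LPS the mean log2 signal of this list was 9.92 and 9.87, and it was 9.02 and 9.07 with LPS. The corresponding means were 8.99 and 8.84 in basophils without IgE, 9.75 and 9.79 in basophils with IgE, and 8.72 and 8.87 in mast cells. The BMEos without LPS thus had the highest means of the 10 arrays, and the LPS arrays lay just above the basophils without IgE and the mast cells. The culture difference described above applies here too.

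Oxidative phosphorylation had few calls. Of its 36 genes 2 rose and 4 fell, with a median difference of 0.00. Ribosomal proteins (1 up and 2 down of 30), ribosome biogenesis (4 and 1 of 31), the unfolded protein response (2 and 5 of 28), cholesterol synthesis and efflux (3 and 4 of 27) and cell cycle and DNA replication (4 and 5 of 43) also had shares called near or below those over all genes. Within the cell cycle list single genes moved far. Ccnd2, cyclin D2, had signals of 6.72 and 6.96 without LPS and 8.71 and 9.65 with LPS. Ccne2, cyclin E2, had signals of 7.11 and 7.31 against 4.85 and 4.84, below background with LPS and at least 2.96-fold lower. The inhibitor Cdkn1b (p27) had signals of 10.55 and 10.60 against 8.89 and 8.96.

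Histone genes of the chromosomal clusters fell as a whole. All 11 tested genes fell (median difference -1.43), 7 of them at least 2-fold in both genotypes. H2bc4 had signals of 11.39 and 11.77 without LPS and of 8.24 and 8.36 with LPS, 9.67-fold lower (adjusted p = 3.73e-05), and H1f2, a linker histone, had signals of 11.81 and 11.85 against 10.25 and 9.89. The smallest falls were those of H4c4 (12.80 and 12.66 against 12.15 and 12.20) and H4f16 (8.31 and 8.15 against 7.70 and 7.75). The mean signal of the list was 9.19 and 9.13 without LPS and 7.58 and 7.63 with LPS, against 6.87 to 7.86 on the basophil and mast cell arrays. Genes of the clusters share much of their sequence, so the 11 probe sets are not independent measurements. Their transcripts mostly end in a stem-loop without a poly(A) tail.

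Genes that restrain growth, many of them targets of FOXO factors or glucocorticoids, fell in 17 of 25 cases and rose in 1, with a median difference of -0.63. The share that fell was 68.0% against 16.2% over all genes. Tsc22d3, the glucocorticoid-induced leucine zipper GILZ, had signals of 9.0 and 8.72 without LPS and of 6.81 and 7.13 with LPS, 3.71-fold lower (adjusted p = 0.000469). Foxo3 had signals of 9.39 and 9.44 against 8.45 and 8.67, Ccng2 (cyclin G2) of 10.11 and 9.96 against 8.28 and 8.40, and Ypel3 of 10.44 and 10.51 against 8.81 and 8.75. Txnip, an inhibitor of glucose uptake, fell less (12.17 and 12.25 against 11.74 and 11.80). Without the wildtype pair 13 genes of the list fell, and without the Slpi-/- pair also 13.

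**Figure D3:**
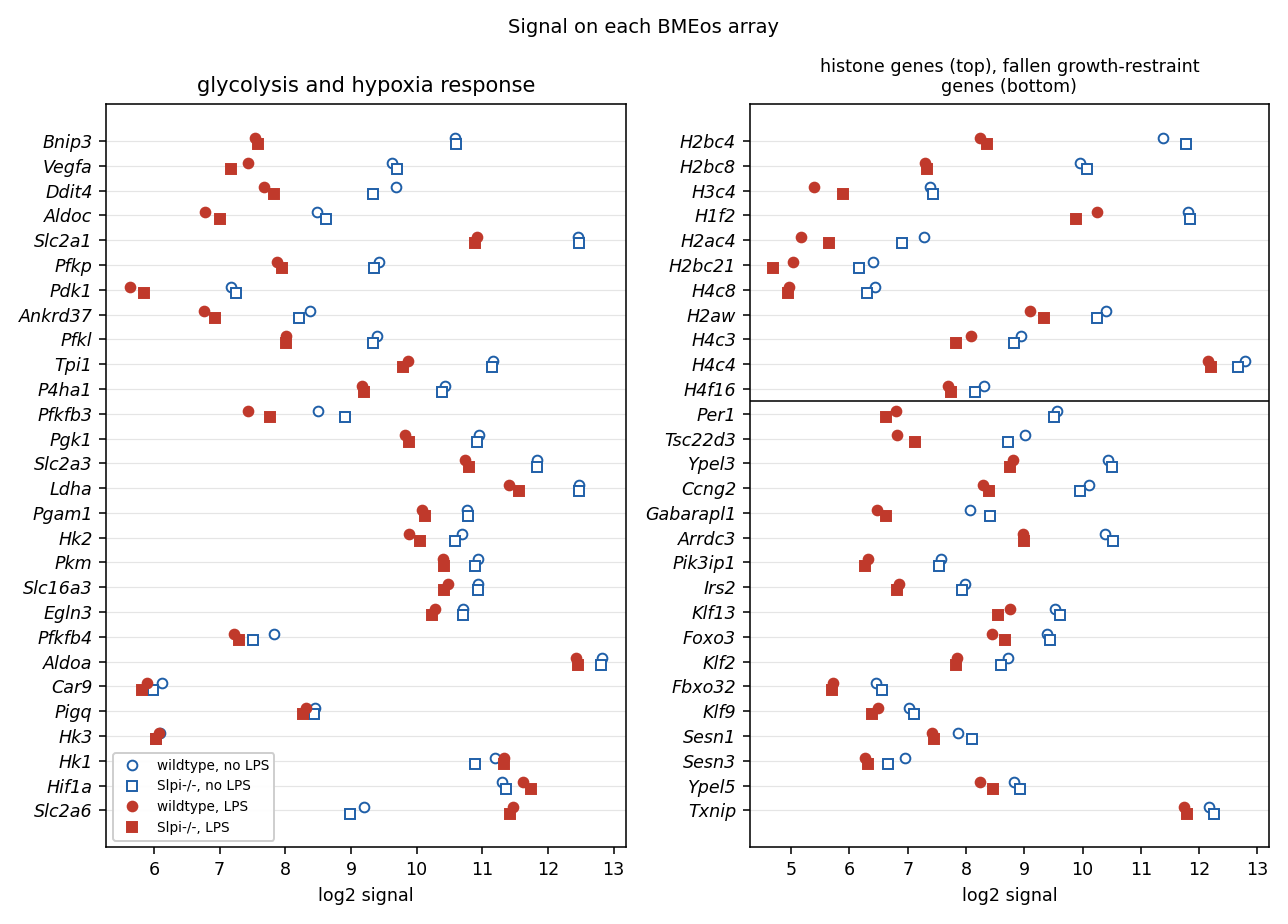
Log2 signal on the 4 BMEos arrays of the 28 genes of the glycolysis and hypoxia list (left, ordered by mean difference), and of the 11 histone genes and the 17 fallen growth-restraint genes (right), with 1 symbol an array. The LPS arrays (filled) lie to the left of the arrays without LPS (open) for most genes, and to the right for Slc2a6, Hif1a and Hk1 at the foot of the left panel.

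Circadian factors overlapped with that list through Per1. Of 16 tested, 7 fell and 0 rose (6 fell without the wildtype pair and 2 without the Slpi-/- pair). Nfil3, a repressor that also governs type 2 cytokines, had signals of 10.69 and 10.57 without LPS and of 8.93 and 8.78 with LPS, while Clock did not pass (7.15 and 7.10 against 7.56 and 7.29, adjusted p = 0.0863).

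Immediate early factors fell more often than they rose, with 11 down and 3 up of 27. Jun had signals of 8.62 and 8.71 without LPS and of 7.04 and 7.04 with LPS, and Junb had signals of 9.16 and 9.14 against 7.72 and 7.50. These partners of Fos in AP-1, together with Atf3 (8.61 and 8.92 against 7.71 and 8.01), Klf6 (10.62 and 10.61 against 9.43 and 9.49) and Nr4a1 (8.52 and 8.80 against 8.12 and 8.04), were lower with LPS in both genotypes. The zinc finger factors Egr2 (6.43 and 6.39 against 7.37 and 7.34) and Egr1 (6.50 and 6.33 against 7.18 and 7.14) rose, by 1.92-fold and 1.68-fold. The mean signal of the list was 7.78 and 7.76 without LPS and 7.38 and 7.36 with LPS, against 9.21 and 9.22 in mast cells and 7.10 to 7.49 in basophils.

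Heat shock proteins had 10 falls and 3 rises among 26 genes (8 falls without the wildtype pair and 6 without the Slpi-/- pair). Hsp90aa1 had signals of 10.24 and 10.84 without LPS and of 9.31 and 9.33 with LPS, Dnajb1 had signals of 8.35 and 8.97 against 7.58 and 7.51, and Dnajb4 had signals of 8.92 and 9.25 against 7.28 and 7.36. In all of these, as in Hspa1a, the Slpi-/- array without LPS was the highest of the 4. The small chaperone Hspb1 rose (5.72 and 5.42 against 6.35 and 6.75). Metallothioneins and zinc transporters had 6 falls and 2 rises among 13. Mt2 had signals of 11.41 and 11.32 against 9.21 and 9.31, 4.31-fold lower (adjusted p = 7.12e-05), and Mt1 had signals of 10.27 and 10.12 against 9.12 and 9.14.

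Promoters are shown for 4 of the fallen genes and for 1 risen gene, Mmp12. Each holds a motif that is counted over all promoters below. The sequences cover 250 bases before to 50 bases after a transcription start (RefSeq, GRCm38.p6) and are written 5′ to 3′ on the gene's strand, with the motif in capitals. In Bnip3 the capitals mark a CACGTG, which reads as the hypoxia core ACGTG on both strands. In Hspa1a they mark a heat shock element (GAANNTTC), in Mt2 metal response cores (TGCACNC or TGCGCNC on either strand), in Dusp1 a cAMP response element (TGACGTCA) and in Mmp12, at the second of its starts in the table, an AP-1 element (TGAGTCA), which its first start lacks.
Bnip3, chr7:138909457-138909756, minus strand: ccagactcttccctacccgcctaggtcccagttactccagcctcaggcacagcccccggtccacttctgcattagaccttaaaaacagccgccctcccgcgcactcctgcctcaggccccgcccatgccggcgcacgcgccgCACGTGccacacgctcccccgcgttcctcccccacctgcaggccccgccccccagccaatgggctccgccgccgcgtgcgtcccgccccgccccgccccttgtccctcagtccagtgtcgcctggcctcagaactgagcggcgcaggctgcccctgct
Hspa1a, chr17:34972107-34972406, minus strand: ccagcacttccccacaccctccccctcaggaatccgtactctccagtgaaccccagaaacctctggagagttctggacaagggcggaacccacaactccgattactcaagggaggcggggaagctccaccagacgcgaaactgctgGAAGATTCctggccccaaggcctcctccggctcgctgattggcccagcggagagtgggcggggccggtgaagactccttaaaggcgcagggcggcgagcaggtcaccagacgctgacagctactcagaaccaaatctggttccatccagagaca
Mt2, chr8:94172368-94172667, plus strand: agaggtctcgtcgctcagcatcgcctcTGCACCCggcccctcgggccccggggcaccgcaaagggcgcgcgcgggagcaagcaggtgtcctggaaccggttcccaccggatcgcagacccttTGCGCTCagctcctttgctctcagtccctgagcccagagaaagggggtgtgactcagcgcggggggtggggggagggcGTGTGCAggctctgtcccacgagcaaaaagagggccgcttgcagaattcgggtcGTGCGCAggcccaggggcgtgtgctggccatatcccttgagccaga
Dusp1, chr17:26508423-26508722, minus strand: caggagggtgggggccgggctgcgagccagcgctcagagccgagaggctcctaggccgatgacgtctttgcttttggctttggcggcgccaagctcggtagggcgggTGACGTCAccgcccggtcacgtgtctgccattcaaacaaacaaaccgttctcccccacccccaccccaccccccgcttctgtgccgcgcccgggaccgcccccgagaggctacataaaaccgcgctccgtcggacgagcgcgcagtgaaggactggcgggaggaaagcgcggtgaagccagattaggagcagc
Mmp12, chr9:7347124-7347423, plus strand: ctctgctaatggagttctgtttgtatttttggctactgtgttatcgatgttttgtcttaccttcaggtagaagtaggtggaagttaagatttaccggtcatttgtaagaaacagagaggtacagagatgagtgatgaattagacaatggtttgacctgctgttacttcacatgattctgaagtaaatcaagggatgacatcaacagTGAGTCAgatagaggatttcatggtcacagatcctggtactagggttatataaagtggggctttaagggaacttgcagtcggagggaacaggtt

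Of the 13571 genes tested, 10744 had such a promoter in the table. ACGTG stood on either strand in 20 of the 27 promoters of the glycolysis and hypoxia list (74.1%), against 27.8% of all promoters. Other lists also exceeded that share, with 57.1% for circadian factors, 50% for metallothioneins and zinc transport and 45.5% for heat shock proteins. Immediate early factors had 38.1% and growth-restraint genes 36.4%. The motif stood in 40.2% of the promoters of genes at least 2-fold lower in both genotypes, and in 14.7% of those at least 2-fold higher. The letters CACGTG, called an E-box, contain ACGTG and stood in 11.1% of all promoters, 16.2% of those of the lower genes and 5.8% of those of the higher genes. GAANNTTC stood in 11 of 22 promoters of heat shock protein genes (50%) and in 7.1% of all. The metal response cores are short and stood in 39% of all promoters and in 6 of 10 of the metallothionein and zinc list. TGACGTCA was found in 3.3% of all promoters, 3.4% of those of the lower genes and 0.9% of those of the higher genes. TGAGTCA or TGACTCA was found in 4.8% of all promoters, 4.9% of those of the lower genes and 11.1% of those of the higher genes, and TGACNNNGC, the antioxidant element, in 16.5%, 20.6% and 14.7%. The motif ACGTG was chosen after the fall of the hypoxia list was seen. These matches describe the letters only, and no binding was measured.

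**Figure D4:**
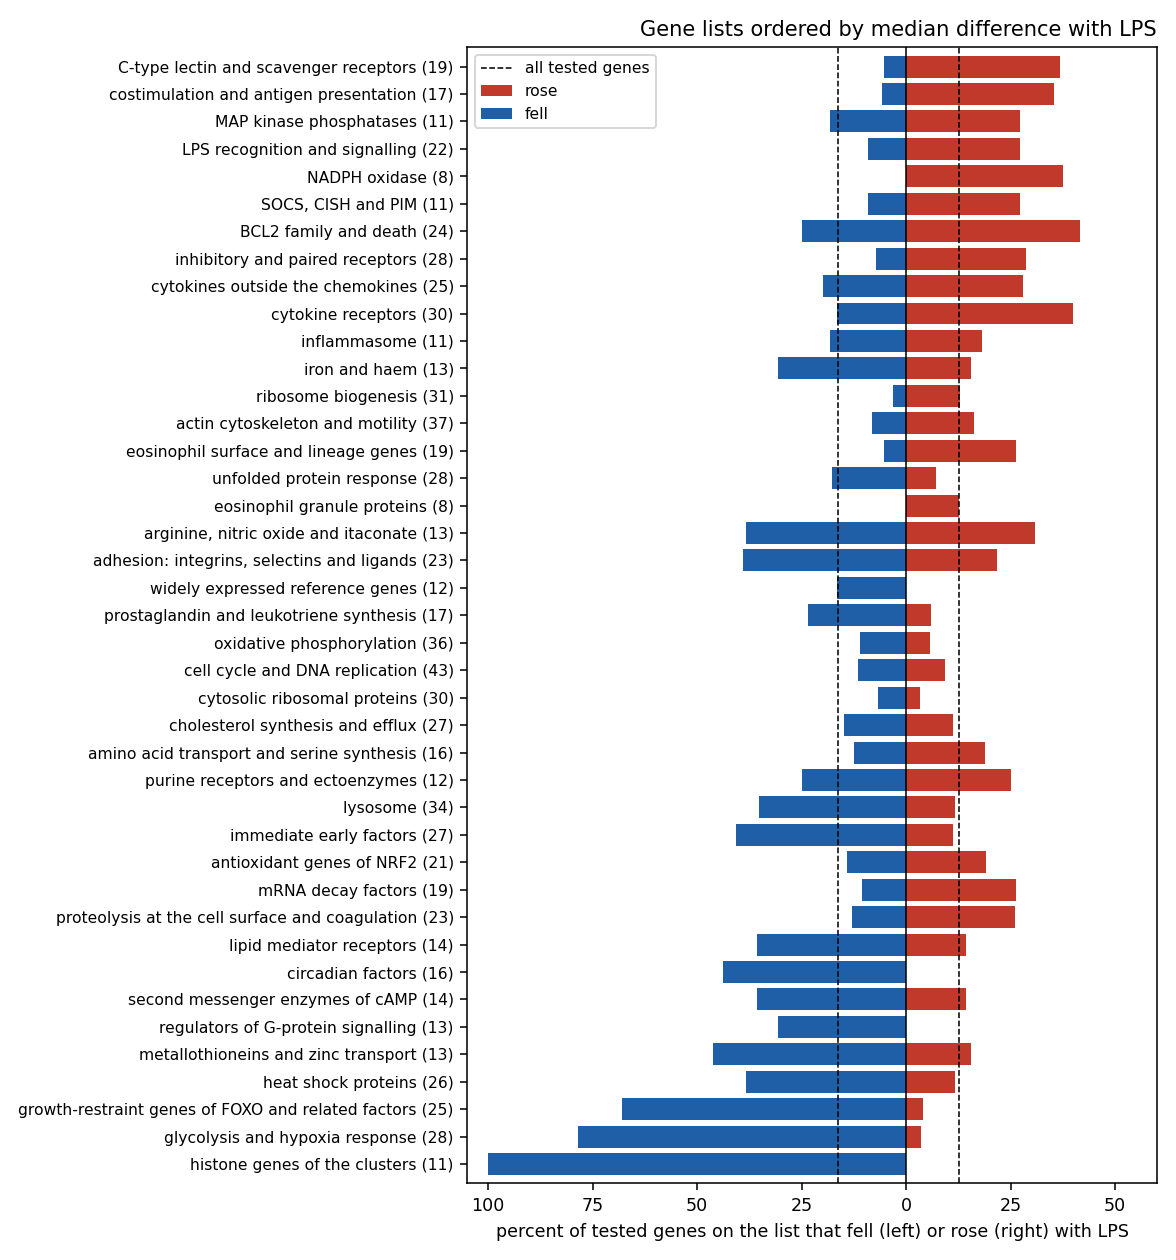
Share of the tested genes of each of 41 lists that fell (blue, to the left) or rose (red, to the right) with LPS by limma, with the number tested in brackets and the lists ordered by their median difference. Dashed lines give the shares over all tested genes, 16.2% and 12.7%, and the histone, glycolysis and growth-restraint lists reach farthest to the left.

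Sensing and feedback genes of LPS moved in both directions. Of 22 genes of LPS recognition and signalling, 6 rose (27.3%, against 12.7% over all tested genes) and 2 fell (9.1%, against 16.2%). Irak3, an inhibitor of MyD88 signalling, had signals of 8.81 and 8.73 without LPS and of 11.34 and 11.24 with LPS, 5.72-fold higher (adjusted p = 3.08e-05). Cd14, the co-receptor, had signals of 5.00 and 5.45 against 6.73 and 6.63, from below background, and Myd88 had signals of 9.71 and 9.78 against 10.32 and 10.60. Tlr4, the receptor itself, fell 1.55-fold (8.86 and 8.91 against 8.01 and 8.49, adjusted p = 0.0165), with the higher LPS value in Slpi-/- cells. Ly96, which encodes MD-2, did not pass (8.53 and 8.57 against 8.51 and 8.40, adjusted p = 0.528).

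Genes that act on mRNA and on kinases behaved likewise. Zc3h12a, the RNase Regnase-1 that degrades cytokine mRNA, had signals of 6.67 and 6.72 without LPS and of 9.28 and 9.05 with LPS, 5.53-fold higher (adjusted p = 8.71e-05), and Zc3h12c had signals of 6.47 and 6.11 against 8.23 and 8.10. Zfp36, which encodes tristetraprolin and acts on AU-rich elements, fell 1.99-fold (10.19 and 10.10 against 9.15 and 9.15). The list of mRNA decay factors had 5 rises and 2 falls of 19 (26.3% and 10.5%). That of MAP kinase phosphatases had 3 and 2 of 11 (27.3% and 18.2%). That of SOCS, CISH and PIM genes had 3 and 1 of 11 (27.3% and 9.1%). Over all tested genes 12.7% rose and 16.2% fell. Dusp16 (6.83 and 6.82 against 7.86 and 7.74) and Dusp6 (8.86 and 8.98 against 9.45 and 9.74) rose where Dusp1 fell. Pim2, a survival kinase, rose 2.98-fold (10.33 and 10.35 against 11.97 and 11.87).

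Cytokine and receptor genes that were not chemokines showed a mixed pattern. Of 25 genes on the cytokine list, 7 rose (28%, against 12.7% over all tested genes) and 5 fell (20%, against 16.2%). The falls include Il17ra, a receptor gene that is counted on the cytokine receptor list as well. They also include Vegfa, which is counted on the glycolysis and hypoxia list too. Ebi3, a subunit of IL-27 and IL-35, had signals of 9.26 and 9.12 without LPS and of 11.24 and 11.12 with LPS, 3.97-fold higher (adjusted p = 6.08e-05). The type 2 cytokine genes Il13 (7.47 and 7.65 against 8.53 and 8.82) and Il4 (7.37 and 7.63 against 8.19 and 7.86) rose, by 2.17-fold and 1.44-fold, and the Il4 call lay close to the threshold (adjusted p = 0.045). Osm, oncostatin M, fell 2.55-fold (9.97 and 9.83 against 8.55 and 8.55).

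Of 30 cytokine receptors, 12 rose and 5 fell, and 6 rose when either pair was left out. Il10ra (8.35 and 8.59 without LPS, 9.58 and 9.63 with LPS), Ifngr2 (10.23 and 10.32 against 11.34 and 11.30) and Il15ra (6.17 and 6.43 against 7.39 and 7.92) rose by 2.06-fold to 2.56-fold. Il1r2, the decoy receptor of IL-1, fell 4.06-fold (9.99 and 9.84 against 7.91 and 7.88, adjusted p = 0.000103), and Il18rap fell 2.22-fold (9.87 and 9.61 against 8.65 and 8.53). Il5ra, through which the cells were grown, did not pass (8.41 and 8.85 against 8.58 and 8.91, adjusted p = 0.383).

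Surface receptors that bind microbes or other cells rose more often than they fell. Of 19 genes on the list of C-type lectin and scavenger receptors, 7 rose and only Fcgr3, an Fc receptor, fell. Of 28 inhibitory and paired receptors, 8 rose and Cd200r1 and Cd200r4 fell. Siglece, an inhibitory sialic acid receptor, had signals of 7.57 and 7.86 without LPS and of 9.53 and 9.52 with LPS, 3.5-fold higher (adjusted p = 0.000177). Olr1, the receptor of oxidised LDL, had signals of 9.70 and 9.87 against 11.24 and 11.23, and Clec7a, the beta-glucan receptor Dectin-1, had signals of 6.37 and 6.72 against 7.59 and 7.65. Without the wildtype pair 5 lectin genes rose and 4 paired receptors rose, and without the Slpi-/- pair 6 and 5.

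Of 17 genes of costimulation and antigen presentation, 6 rose and Pdcd1lg2 fell. The rises include Il15ra, which is counted on the cytokine receptor list as well. Cd74, the class II invariant chain, had signals of 6.37 and 6.42 without LPS and of 8.11 and 8.14 with LPS, H2-Aa had signals of 5.93 and 6.62 against 7.56 and 7.59, and Cd80, a ligand of CD28, had signals of 9.0 and 8.74 against 10.09 and 10.11. Cd74 and H2-Aa are also among the dendritic cell markers that rose (above), whose part in this result was not tested.

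Adhesion genes were split. Of 23 integrins, selectins and ligands, 5 rose and 9 fell, and 2 of the falls were called when either pair was left out. The chains of the integrin VLA-4, Itga4 (9.48 and 9.54 without LPS, 10.74 and 10.82 with LPS) and Itgb1 (9.62 and 9.72 against 10.72 and 10.78), and the fibronectin receptor chain Itga5 (7.27 and 7.13 against 8.71 and 8.69) rose by 2.11-fold to 2.82-fold. Itgax (9.51 and 9.80 against 8.47 and 8.73) and Itgb7, the partner of Itga4 in a gut-homing integrin (10.20 and 10.29 against 9.54 and 9.75), fell. Of 37 actin and motility genes, 6 rose (16.2%, against 12.7% over all tested genes) and 3 fell (8.1%, against 16.2%). Cdc42ep2 (5.9 and 6.24 against 8.53 and 8.45) had the largest rise, at 5.36-fold. Regulators of G-protein signalling had 4 falls and 0 rises of 13. Purine receptors and ectoenzymes had 3 of each of 12 (25% each, against 12.7% risen and 16.2% fallen over all tested genes). Among them P2ry2, an ATP and UTP receptor, fell 2.48-fold (8.74 and 8.99 against 7.60 and 7.51).

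Of 17 genes of prostaglandin and leukotriene synthesis, 4 fell (23.5%, against 16.2% over all tested genes) and 1 rose. Ptgs2, the inducible cyclooxygenase COX-2, had signals of 10.06 and 10.45 without LPS and of 8.30 and 8.27 with LPS, 3.93-fold lower (adjusted p = 0.00157), whereas Ptges, prostaglandin E synthase, rose 1.5-fold (5.82 and 5.93 against 6.56 and 6.36). Lipid mediator receptors had 5 falls (35.7%) and 2 rises of 14, and cAMP enzymes likewise. Among the latter Adcy9, an adenylate cyclase, fell 2.99-fold (8.50 and 8.24 against 6.87 and 6.70) and Pde4b, a phosphodiesterase that degrades cAMP, rose 1.78-fold (8.15 and 8.25 against 9.21 and 8.86).

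Genes of cell death moved both ways within the list. Of 24 genes of the BCL2 family and death, 10 rose and 6 fell. Bcl2l1, which encodes the survival protein BCL-XL, had signals of 8.04 and 8.14 without LPS and of 9.73 and 9.72 with LPS, 3.11-fold higher (adjusted p = 0.000153), and Bcl2l11, which encodes the killer protein BIM, had signals of 8.29 and 8.37 against 7.31 and 7.36, 1.99-fold lower. Fas, the death receptor, rose 3.82-fold (7.86 and 7.80 against 9.74 and 9.78). Gadd45a, a stress sensor, fell 3.92-fold (10.41 and 10.43 against 8.40 and 8.49), and Mcl1 did not pass (11.04 and 11.04 against 11.11 and 11.13, adjusted p = 0.524). In the inflammasome list Casp1 rose 2.75-fold (6.23 and 6.61 against 7.59 and 8.16) with Casp4, and Pycard, the adaptor ASC, fell 1.78-fold (9.41 and 9.23 against 8.64 and 8.34). The list had 2 rises and 2 falls of 11 (18.2% each, against 12.7% and 16.2% over all tested genes). Casp4 is counted among the rises of the BCL2 family and death list as well.

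Effector and metabolic genes completed the picture. NADPH oxidase genes had 3 rises and 0 falls of 8, namely Ncf1 (11.09 and 11.14 without LPS, 11.96 and 11.99 with LPS), Ncf4 and Rac2. Arginine, nitric oxide and itaconate genes had 4 rises and 5 falls of 13, with Gch1, which makes the cofactor of nitric oxide synthase, at 4.88 and 5.45 against 6.73 and 7.14. Iron and haem genes had 2 rises (15.4%, against 12.7% over all tested genes) and 4 falls (30.8%, against 16.2%) of 13. Lcn2, which sequesters bacterial siderophores and is also a neutrophil marker, had signals of 6.42 and 6.90 against 9.37 and 9.03, and Slc40a1, the iron exporter, had signals of 6.80 and 7.06 against 5.42 and 5.67. Abca1, which exports cholesterol, rose 3.99-fold (5.79 and 5.30 against 7.59 and 7.49). Amino acid transport and serine synthesis (3 up and 2 down of 16) and the antioxidant genes of NRF2 (4 and 3 of 21) had calls in both directions.

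In the lysosome list 12 of 34 genes fell and 4 rose. Ctsd, cathepsin D, had signals of 12.40 and 12.43 without LPS and of 11.83 and 11.91 with LPS, while Ctss, the cathepsin that cleaves the class II invariant chain, had signals of 5.93 and 5.88 against 7.20 and 7.19. The falls of this list were mostly small, and 5 were called without the wildtype pair and 4 without the Slpi-/- pair. Proteolysis and coagulation genes had 6 rises and 3 falls of 23. Mmp12, macrophage elastase, had signals of 5.91 and 5.95 against 8.34 and 8.15, 4.96-fold higher (adjusted p = 0.000793), and Thbs1, thrombospondin, fell 2.14-fold from a high level (12.82 and 12.79 against 11.74 and 11.68).

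Genes of eosinophil identity were described apart. Of 8 granule protein genes, 1 rose, Epx, eosinophil peroxidase (11.17 and 10.67 without LPS, 11.57 and 11.54 with LPS, adjusted p = 0.0155), and 7 did not pass. Among these Prg2 had signals of 12.20 and 12.02 against 12.16 and 12.35, and Rnase2a, an eosinophil-associated ribonuclease, had signals of 6.48 and 6.40 against 4.73 and 5.26, below background with LPS (adjusted p = 0.0649). Of 19 surface and lineage genes, 5 rose (26.3%, against 12.7% over all tested genes) and 1 fell. Zeb2, a transcription factor, rose 2.38-fold (8.58 and 8.78 against 9.93 and 9.93), and Gata2 fell 1.83-fold (8.92 and 8.99 against 8.06 and 8.10). Of 12 widely expressed reference genes, 0 rose and 2 fell, Pgk1 and Sdha, and Pgk1 is also a glycolytic gene.

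Wildtype and Slpi-/- BMEos shared the direction and the size of most of the larger differences. Across the 13571 tested genes, which are not independent replicates, the differences with LPS of the genotypes had a Pearson r of 0.883 and a Spearman rho of 0.758, and 78.5% of genes had the same sign. Of 329 genes at least 2-fold higher in wildtype cells, 281 (85.4%) were at least 2-fold higher in Slpi-/- cells and 1 had the opposite sign, and of 350 at least 2-fold lower, 258 (73.7%) were at least 2-fold lower and 0 had the opposite sign. The median sizes were close, 1.61 and 1.57 on the log2 scale for the genes higher in wildtype cells and -1.24 and -1.21 for the lower ones. Counted from the other side, 281 of 354 genes higher in Slpi-/- cells (79.4%) and 258 of 340 lower genes (75.9%) were 2-fold changed in wildtype cells. No gene, 0 of 13571, was 2-fold changed in opposite directions. Both pairs share the difference in Xist and Y-linked signals described above, whose part in these values was not tested.

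**Figure D5:**
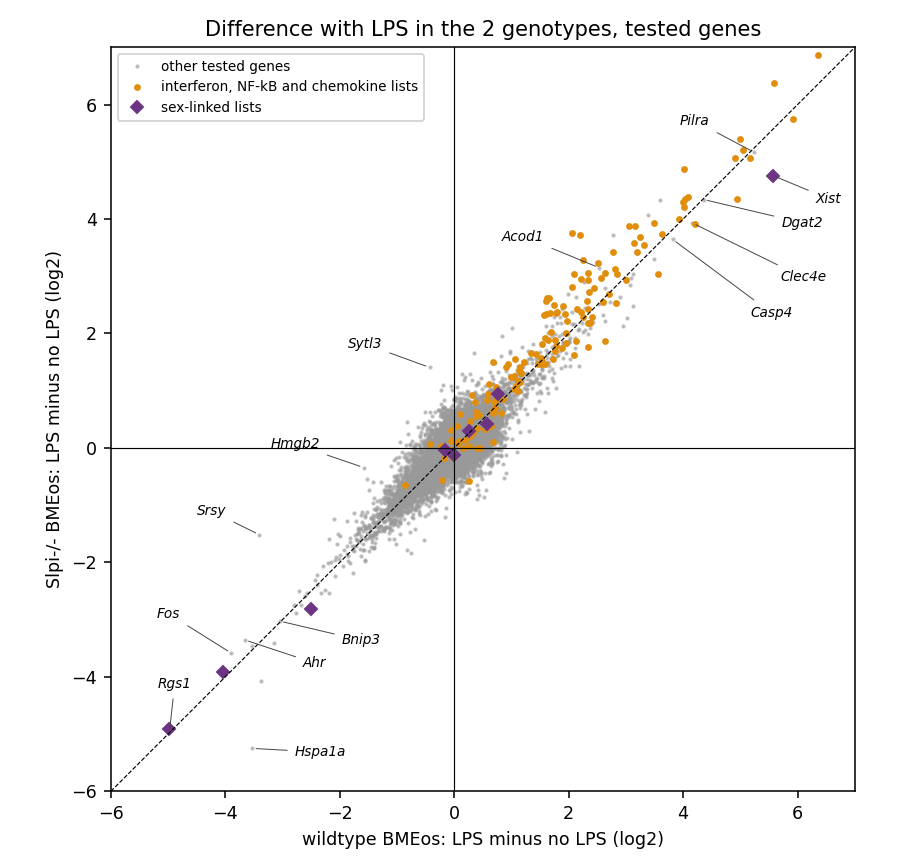
Difference with LPS on the log2 scale in wildtype (horizontal) and Slpi-/- BMEos (vertical) for the 13571 tested genes, with the interferon, NF-kB and chemokine lists in orange, the sex-linked lists as purple diamonds and equality as a dashed line. Points follow the line in both directions (Pearson r 0.883), and Hspa1a, Srsy and Hmgb2 lie among the farthest from it.

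The test of a difference between the genotypes' responses, with 1 residual degree of freedom, called 0 genes, and 487 had an unadjusted p under 0.05 (smallest adjusted p 0.9999, limma). That degree of freedom came from the basophil arrays alone, so the BMEos arrays were assumed to vary like those. A miss in this design does not show that the responses were equal. In 47 genes the responses differed by at least 2-fold. Hspa1a fell by 3.53 in wildtype and by 5.25 in Slpi-/- cells on the log2 scale, from unequal levels without LPS. Hmgb2, a chromatin protein of dividing cells, had signals of 9.84 and 9.57 without LPS and of 8.26 and 9.23 with LPS, so that it fell by 1.58 in wildtype cells and by 0.34 in Slpi-/- cells. Opposite signs were seen for Sytl3 (5.44 in wildtype and 4.27 in Slpi-/- cells without LPS, 5.01 and 5.68 with LPS), which was above background only with LPS in Slpi-/- cells, and for Stk38l (5.69 and 6.71 against 6.21 and 5.85), which was above background on all 4 arrays.

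Of the genes that the study followed for SLPI, none of Slpi, Mmp9, Elk1, Mapk8 and Mapk8ip3 passed the test for LPS. Mmp9, matrix metalloprotease 9, stood at 5.95 before and 5.9 after LPS in wildtype BMEos and at 8.33 and 7.75 in Slpi-/- BMEos (adjusted p = 0.334), so that its arrays were separated by genotype and not by LPS. Slpi differed by -0.13 in wildtype and by -0.48 in Slpi-/- cells (adjusted p = 0.0982), and Elk1 had signals of 7.61 and 7.41 against 7.79 and 7.98 (adjusted p = 0.0839).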

How the data were processed

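Per the labels and methods, RNA was hybridised to Affymetrix Mouse Gene 1.0 ST arrays, and the authors summarised probe signals by RMA with affy (versions not given in the sources used here) and deposited log2 values, which were used unchanged. Of 34760 probe sets, 21640 carried 1 gene symbol in the platform annotation. A gene was taken as its probe set of highest mean, and genes above the 95th percentile of 1027 olfactory receptor genes on at least 1 of 10 arrays were tested (13571). The 1321 probe sets of several symbols and the 11799 without one were not tested. limma 3.58.1 (R 4.3.3) was fitted to all 10 arrays with cell type by genotype means and terms for IgE and for LPS (2 residual and 4.48 prior degrees of freedom). The genotype difference of the LPS term came from a second fit (1 residual degree of freedom, from the basophil arrays alone). Precision is limited by the number of arrays, and p-values measure only the spread between these samples, which may be technical. A gene below background on both arrays of its lower group has its fold given as a lower bound against the background there.

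The methods name a paired test, and pairs come from the design (same genotype). Alternatives were centring, quantile normalization, averaged probe sets, other filters, a variance trend, the methods' t-test, the 4 BMEos arrays alone, no genotype block, no X and Y genes, each pair left out and other fold minimums. Named genes were the 15 largest rises and falls outside the interferon, NF-kB, chemokine and sex-linked lists (without predicted, RIKEN clone, olfactory and vomeronasal receptor and small RNA genes), up to 3 risen and 3 fallen genes a list, moving markers, genes with the largest genotype differences, sex-linked genes and genes the study followed. Named beyond this rule, after their values were seen, were Atf3, Ccng2, Ccr3, Cd80, Clec7a, Clock, Ctsd, Dnajb1, Foxo3, H1f2, H4c4, H4f16, Hif1a, Hk1, Hk2, Hk3, Car9, Pigq, Rnase2a, Il4, Il5ra, Klf6, Ldha, Ly96, Mcl1, Myd88, Nr4a1, P4ha1, Pdk1, Pfkfb3, Prg2, Siglece, Siglecf, Slc2a1, Slc2a3 and Txnip. Gene lists, of whose 1184 genes 1060 were measured, and members were chosen with earlier results of these data known. The limma code was tested beforehand on simulated arrays. Tables and figures used Python 3.11.15, pandas 2.3.3, scipy 1.17.1 and matplotlib 3.10.9.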

Additional observations from a re-analysis of the deposited data

Results flagged for a closer look

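Signal also appeared in probe sets that were left out because they carry several gene symbols or none. Only probe sets above background on at least 1 eosinophil array were counted. Of 779 with several symbols, 34 were at least 2-fold higher and 24 at least 2-fold lower with LPS in both genotypes. Of 6955 with no symbol, 154 were at least 2-fold higher and 264 at least 2-fold lower in both genotypes. Under the same filter 281 of 12711 named genes were higher and 257 lower by this rule. No test was run on the probe sets left out.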

How the results depend on the processing

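There was 1 array a condition, and LPS cannot be told apart from the culture difference seen in Xist and Y-linked signals. The methods' t-test on the pairs called 0 genes up and 0 down (1078 and 1382 at an unadjusted p under 0.05), since it has 1 degree of freedom and shares no spread between genes. With 1 pair left out, the number of risen genes was 648 to 689 and of fallen genes 888 to 889. At a minimum of 1.5-fold in both genotypes there were 578 higher and 863 lower genes, and at 4-fold 88 and 26, which follows from the minimum itself. Without a filter on signal, the Pearson r between the genotypes was 0.798. Centring on the median gave 1203 rises and 2756 falls. The other alternatives kept the counts of rises and falls within 1.5 times, and the genotype test called 0 genes under every alternative run (scaling, probe sets, filters, trend, no X and Y genes). Of 222 named genes that passed, 0 changed direction under any alternative, and 79 lost the call without the wildtype pair, 75 without the Slpi-/- pair and 24 without the filter. All 3926 genes that limma called had the same sign in both genotypes, so leaving out a pair could not reverse a direction. Centring moved the median difference from 0.02 to -0.06, less than the smallest called rise of 0.30 or fall of -0.30. The 0 changes of direction under these alternatives were thus fixed by the calls. The shares of risen and fallen list members rest on these calls.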
